A study of Mus musculus with 6 samples.

Results

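Apolipoprotein genes were examined in the liver RNA-seq data of p75NTR KO mice. The 10 genes were Apoa1, Apoa2, Apoa4, Apoa5, Apob, Apoc1, Apoc2, Apoc3, Apoe and Apom, chosen by name as the apolipoproteins of plasma lipoproteins and found by their Ensembl identifiers among the 49671 genes of the count table. All 10 passed the filter on low counts, which left 13773 genes for testing. The study asked how loss of the p75 neurotrophin receptor alters lipid metabolism in the liver, and the single comparison of the series sets 3 KO livers (replicates 1, 2 and 4) against 3 wild-type (WT) livers (replicates 1, 2 and 3).

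The tissue was bulk liver of mice aged 6 months on a standard diet. The KO mice lacked the receptor gene Ngfr throughout the body and not in the liver alone, and came from The Jackson Laboratory. WT and KO animals were bred in the same laboratory, and the strain label B6.1129S4-Ngfr/J was given to both groups. The labels name no sex, litter or pairing, so p-values measure the spread between these 6 samples.

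Apolipoproteins are the protein part of the particles that carry triglyceride and cholesterol in blood. Apolipoprotein B is the structural protein of very-low-density lipoprotein (VLDL), which the liver secretes, and apolipoproteins A-I and A-II are the main proteins of high-density lipoprotein (HDL). Smaller apolipoproteins move between particles and tune lipoprotein lipase, the enzyme that releases fatty acids from circulating triglyceride, while apolipoprotein E is a ligand by which receptors clear remnants. Most of these genes are expressed mainly in hepatocytes, and in rodents Apoa4 is also strongly expressed in the small intestine.

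The libraries held 27107209 to 32664149 counts. Ngfr had 78 to 144 counts in WT and 27 to 53 in KO, counted over the whole gene and not over the deleted part. Levels are given as CPM, that is, counts relative to the TMM-adjusted total of each library. The 9 hepatocyte markers found summed to 112921 to 129253 CPM in WT and 103570 to 123681 CPM in KO. Taken singly, 7 had positive and 2 negative log2 fold changes in edgeR, with a median of 0.20. With 6 libraries edgeR called 0 of the 9 and DESeq2 called 2 as higher in KO, against 1.27% of all genes in DESeq2. The 10 enterocyte markers summed to 73.6 to 105 CPM in WT and 63.6 to 67 CPM in KO, and 4 of them (Alpi, Cdx2, Rbp2 and Sis) were at 0 in every library. Most of each sum was Fabp2, which hepatocytes also express. KO replicate 4 stood apart: it had 4712 counts of 4 Y-linked genes and 16 of Xist, against 0 to 2 and 6599 to 9554 in the others. It also held 9289 CPM of male-biased liver genes against 104 to 292 CPM, and 15.8 CPM of female-biased genes against 1392 to 2379 CPM. The fitted changes of the members are therefore given with and without this library, and the part of sex in those that include it was not tested.

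The summed share of liver counts taken by the apolipoproteins overlapped between WT and KO when KO replicate 4 was included, and Apoe was the largest part of it. Together the 10 genes took 4.81%, 4.64% and 4.45% of all counts in the WT libraries and 4.91%, 5.17% and 4.59% in the KO libraries. The means were 4.63% ± 0.178 in WT and 4.89% ± 0.291 in KO (SD, n = 3 each), and the highest WT library was above KO replicate 4 alone. Without KO replicate 4 the KO mean was 5.04% and both KO livers lay above all WT livers, a description with no test. Apoe alone made up 1.96% of the counts in WT and 2.04% in KO.

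Levels of different genes were compared per length, as CPM per kilobase of the union of each gene's exons. On this scale Apoa2 was first in WT with 11671 ± 389 (SD, n = 3), followed by Apoe with 9089 ± 549 and Apoa1 with 7293 ± 554. Apoc1 and Apoc3 followed with 2710 ± 211 and 1924 ± 105, and Apoa5 with 800.5 ± 216. Apoa4, Apob and Apom were close to each other, at 313.6 ± 51.4, 313.6 ± 12.9 and 279 ± 6.07, and the range of Apoa4 overlapped those of Apob and Apom in WT. In KO, Apoa4 was at 200.2 ± 49.7 per kilobase and lay below Apob, at 330.1 ± 62, in each of the 3 livers. The order at the top depends on the length used: per kilobase of the principal transcript, a choice made after the values were seen, Apoe was first in WT at 13802 ± 833 and Apoa2 second at 12099 ± 403. On that length the WT ranges of Apoc1 and Apoc3 overlapped as well.

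**Figure D1:**
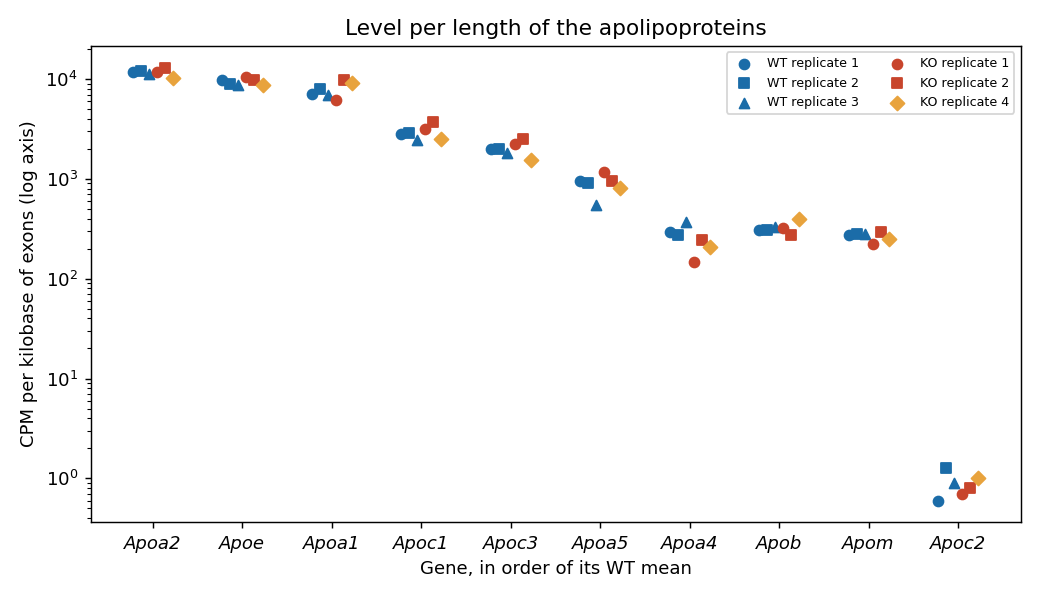
CPM per kilobase of exons (log axis) of each apolipoprotein in each of the 6 liver libraries, ordered by the WT mean. The WT means run from 11671 for Apoa2 down to 279 for Apom, and Apoc2 lies near 1 in every library.

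Of the 10 apolipoproteins only Apoa4 had WT and KO values that did not overlap, being lower in all 3 KO livers, and no member passed the test in 6 libraries. The other 9 genes overlapped between the groups. In the comparison with edgeR's quasi-likelihood test, 0 of 10 members passed an adjusted p of 0.05, against 0% of all 13773 genes. At an unadjusted p under 0.05 stood 1 member (Apoa4) and 988 genes, 7.17% of all tested. DESeq2 called 0 of 10 members on a background of 1.27%, and limma-voom 0 of 10 on a background of 0.0363%. Groups without overlap were found for 12.4% of all genes, and for 6.36% with the KO values lower, which is the direction of Apoa4. Of the 10 log2 fold changes, 7 were positive and 3 negative, with a median of 0.08 beside a median of 0.00 (-0.0012) over all genes.

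**Figure D2:**
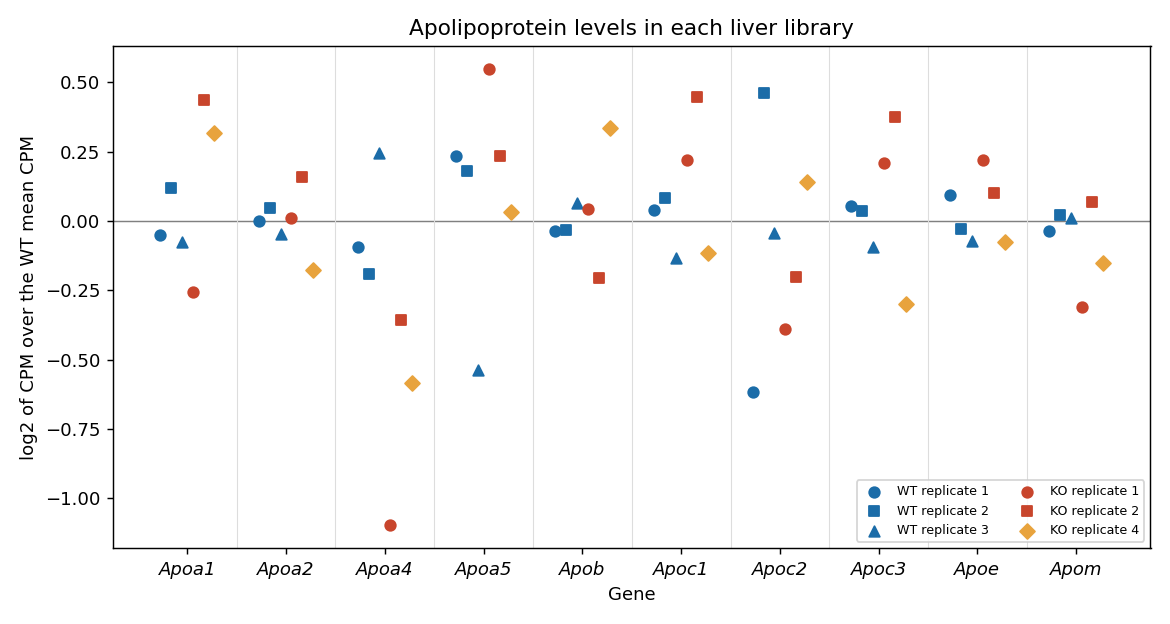
The log2 of each gene's CPM over its WT mean in each library, with 1 point per library and KO replicate 4 as a diamond. Apoa4 is the only gene whose 3 KO points, from -1.10 to -0.36, all lie below its 3 WT points, from -0.19 to 0.25.

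Apoa4 encodes apolipoprotein A-IV, which is carried on HDL and on triglyceride-rich particles and is known in mice to rise with the triglyceride load of the liver. The WT libraries gave 16424, 15532 and 18637 Apoa4 counts, and the KO libraries 8403, 14369 and 11075, in the order of the replicate numbers. This came to 533, 499 and 675 CPM in WT and 266, 444 and 380 CPM in KO. All KO livers lay below all WT livers, with KO replicate 1 lowest and the nearest pair, KO replicate 2 and WT replicate 2, at 444 and 499 CPM. The means were 569 ± 93.4 CPM in WT and 363 ± 90.2 CPM in KO (SD, n = 3 each), a ratio of 0.638.

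The edgeR log2 fold change of Apoa4 was -0.65 (SE 0.202, 95% interval -1.11 to -0.19) and the adjusted p was 0.518. The enterocyte marker Fabp2, which hepatocytes also express, was named after its values were seen. Fabp2 was at 57.8, 72.9 and 88.7 CPM in WT and 52.5, 50.5 and 51.8 CPM in KO (log2 fold change -0.50, adjusted p = 0.518 in edgeR). Of the 10 enterocyte markers 4 passed the filter, 1 with a positive and 3 with a negative log2 fold change. Another 4 (Alpi, Cdx2, Rbp2 and Sis) were at 0 in all libraries, and the part of enterocytes in the Apoa4 values was not tested. Larger absolute changes than that of Apoa4 were found for 1041 of the 13773 genes, 7.56%. In DESeq2 the adjusted p was 0.0748. An exact permutation test (two-sided) over the 3 and 3 samples gave p = 0.1, the smallest this design allows. Without KO replicate 4 the change was of the same size, -0.67 (SE 0.219, adjusted p = 0.259 in edgeR), and DESeq2 called Apoa4 at an adjusted p of 0.0333, on a background of 3.17% of genes called and 1.81% called as lower in KO. Over 16 alternative fits the log2 fold change of Apoa4 ranged from -0.82 to -0.46 and the adjusted p from 0.0333 to 0.985.

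**Figure D3:**
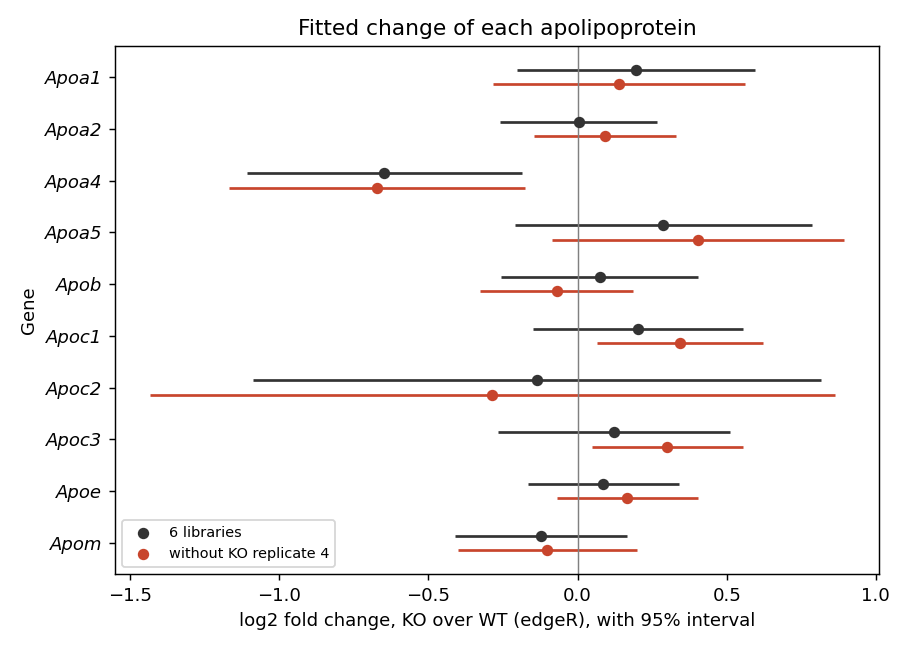
Log2 fold change of KO over WT from edgeR (point) with its 95% interval (line) for each apolipoprotein, in 6 libraries and without KO replicate 4. The interval of Apoa4 runs from -1.11 to -0.19 in 6 libraries, and those of the other 9 genes include 0. In the fit without KO replicate 4 the intervals of Apoc1 and Apoc3 lie above 0, from 0.07 and 0.05 upwards.

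Apoa4 lies in a cluster of 4 apolipoprotein genes that spans 43.3 kb on chromosome 9 of GRCm38. Apoa1 is at 46228580 to 46230466 on the plus strand, Apoc3 at 46232933 to 46235636 on the minus strand, Apoa4 at 46240696 to 46243459 on the plus strand and Apoa5 at 46268633 to 46271919 on the plus strand. Apoa4 is 5059 bases from Apoc3 and 25173 bases from Apoa5. Its log2 fold change of -0.65 stood beside 0.20 for Apoa1, 0.12 for Apoc3 and 0.29 for Apoa5. The promoters of the 3 plus-strand genes are shown because these neighbours had fold changes of opposite sign. They are the RefSeq windows of GRCm38.p6 from 250 bases before to 50 bases after a transcript start, written 5′ to 3′, with the TATAAA motif in capitals.
Apoa1, chr9:46228380-46228679, plus strand: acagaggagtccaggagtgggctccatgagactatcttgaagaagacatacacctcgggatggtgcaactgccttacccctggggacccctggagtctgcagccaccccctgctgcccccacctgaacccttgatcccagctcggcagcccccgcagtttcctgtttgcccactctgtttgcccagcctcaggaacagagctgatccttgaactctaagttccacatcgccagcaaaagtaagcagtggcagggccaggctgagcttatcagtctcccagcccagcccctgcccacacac
Apoa4, chr9:46240594-46240893, plus strand: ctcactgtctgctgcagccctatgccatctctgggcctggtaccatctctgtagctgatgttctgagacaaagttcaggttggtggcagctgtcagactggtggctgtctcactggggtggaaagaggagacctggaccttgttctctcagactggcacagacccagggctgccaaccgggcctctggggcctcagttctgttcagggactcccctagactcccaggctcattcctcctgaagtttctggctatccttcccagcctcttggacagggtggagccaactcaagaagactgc
Apoa5, chr9:46268358-46268657, plus strand: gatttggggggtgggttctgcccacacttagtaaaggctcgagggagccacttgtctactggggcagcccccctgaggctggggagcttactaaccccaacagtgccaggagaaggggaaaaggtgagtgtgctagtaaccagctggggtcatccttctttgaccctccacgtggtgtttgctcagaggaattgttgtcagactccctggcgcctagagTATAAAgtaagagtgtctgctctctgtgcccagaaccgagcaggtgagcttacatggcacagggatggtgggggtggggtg

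In these windows TATAAA was found in Apoa5 and in neither Apoa1 nor Apoa4. It lay at -31 to -26 with the first transcribed base of the RefSeq transcript as 0. In the other Apoa5 window, which starts at 46268383 and is not shown, the match lay at -56 to -51. The RefSeq starts used for Apoa1 and Apoa4 lie inside the genes, whose starts are 46228580 and 46240696. Their windows begin at 46228380 and 46240594, so the lack of TATAAA upstream covers only the bases between. RefSeq windows were matched for 8 of the 10 members, Apoc1 and Apoc3 having no entry in the table used. Of the 8, 4 held TATAAA on either strand (Apoa2, Apoa5, Apob and Apoe), against 13.6% of 32851 promoter windows, and 1 held CCAAT (Apoa2), against 37.4%. A direct repeat of AGGNCA spaced by 1 base, the kind of element that HNF4A and PPAR-alpha bind, was in 1 of 8 (Apoc2) and in 0.381% of all windows. The same repeat spaced by 4 bases, the CAAAGTCCA element and the HNF1 palindrome were in 0 of 8, and in 0.253%, 0.475% and 0.00913% of all windows. Both strands and every window of a gene were searched (Apoa2 and Apoa5 have 2 and Apoe 3), and matches overlapped only in an Apoe window, where TATAAA on opposite strands shares 2 bases. A member was counted if any of its windows matched, whereas the background counts single windows, so these shares are not like for like. A match is only a description of the sequence.

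Apoa1, the main protein of HDL, was at 8697, 9800 and 8544 CPM in WT and at 7557, 12186 and 11240 CPM in KO. KO replicate 1 was the lowest of the 6 livers and KO replicate 2 the highest, so that the KO group enclosed the WT group. The log2 fold change was 0.20 (SE 0.175, adjusted p = 0.906 in edgeR), with an interval of 0.869- to 1.51-fold. It was 0.14 without KO replicate 4 and 0.39 (adjusted p = 0.518) without KO replicate 1.

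The ratio of Apoa4 to Apoa1 needs no scaling between libraries, and was taken after the values were seen. There were 6.13, 5.09 and 7.90 Apoa4 counts per 100 Apoa1 counts in WT, and 3.52, 3.65 and 3.38 in KO. The SD of the 3 KO ratios was 0.133 although both genes varied among the KO livers, and the groups did not overlap (exact permutation p = 0.1, the smallest possible with 3 and 3). The log2 difference was -0.84, and -0.81 without KO replicate 4. Against Apob the groups overlapped, with 12.5, 11.7 and 14.8 Apoa4 counts per 100 Apob counts in WT and 5.91, 11.7 and 6.90 in KO (exact permutation p = 0.2).

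**Figure D4:**
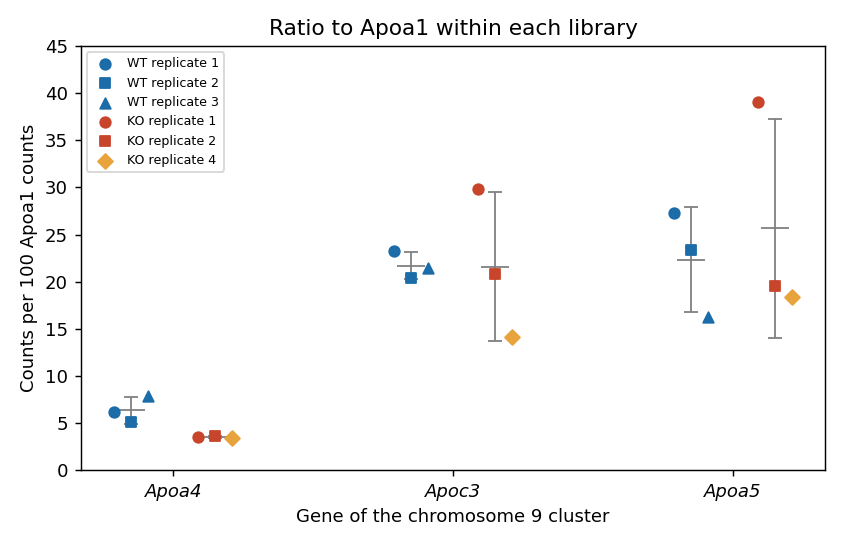
Counts of Apoa4, Apoc3 and Apoa5 per 100 Apoa1 counts in each library, with the mean and SD of each group in grey (n = 3). The 3 KO ratios of Apoa4 lie between 3.38 and 3.65 and below the WT ratios of 5.09 to 7.90, whereas the groups overlap for Apoc3 and Apoa5.

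Apoc3 encodes an inhibitor of lipoprotein lipase and of remnant uptake. It was at 2025, 2000.1 and 1829 CPM in WT and at 2256, 2531 and 1585 CPM in KO, where replicates 1 and 2 lay above and replicate 4 below every WT liver. With 6 libraries the log2 fold change was 0.12 (SE 0.17, adjusted p = 0.944 in edgeR). It was 0.30 (SE 0.112, adjusted p = 0.327 in edgeR) without KO replicate 4, and -0.02 without KO replicate 2.

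Apoa5 encodes a liver protein that raises lipoprotein lipase activity in plasma. It was at 2375, 2289 and 1393 CPM in WT and at 2953, 2376 and 2064 CPM in KO. WT replicate 3 was well below the other 5 livers. The log2 fold change was 0.29 (SE 0.218, adjusted p = 0.89 in edgeR) and 0.40 without KO replicate 4, and it was 0.08 without WT replicate 3. An antisense gene, Gm47544, covers 524 of the 2522 exon bases of Apoa5 and had 0.477 to 0.593 counts per 100 Apoa5 counts. Gm10680 covers 632 of the 1815 exon bases of Apoa4 in antisense and had 0.108 to 0.274 counts per 100 Apoa4 counts. Gm47528, also on the opposite strand, covers a further 634 exon bases of Apoa4 and had 4 to 15 counts per library. The counts, levels and fold changes of Apoa4 carry this limit. No source used here gives the strand setting, so reads of such pairs may not be told apart.

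The second cluster spans 27.6 kb of chromosome 7, on the minus strand, and holds Apoc2 (19671579 to 19677941), Apoc4 (19678083 to 19681479), Apoc1 (19689481 to 19692660) and Apoe (19696109 to 19699188). Its 3 well-counted genes had small positive fold changes in 6 libraries, none of which passed the test. By CPM the same 3 genes were higher in KO replicates 1 and 2 than in every WT liver, for Apoe only on this scaling. They were lower in KO replicate 4 than in KO replicates 1 and 2.

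Apoe, the receptor ligand, was at 20746, 19066 and 18487 CPM in WT and at 22641, 20835 and 18436 CPM in KO. By CPM KO replicates 1 and 2 were the highest and KO replicate 4 the lowest of the 6. As a plain share of all counts, WT replicate 1 (2.11%) was above KO replicate 2 (2.064%). Its log2 fold change was 0.09 (SE 0.111, adjusted p = 0.943 in edgeR), with a 95% interval of 0.891- to 1.27-fold. It was 0.17 (adjusted p = 0.587) without KO replicate 4.

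Apoc1, which encodes an inhibitor of lipoprotein uptake and of lipoprotein lipase, was at 2073, 2137 and 1839 CPM in WT and at 2346, 2749 and 1862 CPM in KO. Its log2 fold change was 0.20 (SE 0.154, adjusted p = 0.89 in edgeR). Leaving out KO replicate 4, the KO livers lay above all WT livers, with a change of 0.34 (SE 0.122, adjusted p = 0.303 in edgeR). Without KO replicate 2 the change was 0.06.

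With KO replicate 4 left out, 5 of the 10 members had groups that did not overlap, 4 of them higher in KO (Apoa5, Apoc1, Apoc3 and Apoe) and Apoa4 lower. Over all genes 30.1% had such groups with 2 KO and 3 WT livers, 14.5% with KO higher and 15.6% with KO lower. For Apoa5 the lowest KO value and the highest WT value were 2376 and 2375 CPM, and for Apoe 20835 and 20746 CPM. These 2 separations depended on the TMM scaling. As plain shares of all counts, KO replicate 2 lay below WT replicate 1 for Apoa5 (0.2354% and 0.2416%) and for Apoe (2.064% and 2.11%). edgeR called 0 of 10 members in these 5 libraries, on a background of 0.808%. At an unadjusted p under 0.05 stood 3 members (Apoa4, Apoc1 and Apoc3), against 12.1% of all genes. The 10 members had a median log2 fold change of 0.12 beside -0.0045 over all genes.

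Apoc2 encodes the cofactor that lipoprotein lipase needs, and its low counts cannot be read as its level. It had 15, 32 and 20 counts in WT and 18, 21 and 24 in KO, with a log2 fold change of -0.14 (SE 0.416, 95% interval -1.09 to 0.82) and of -0.29 (SE 0.506) without KO replicate 4. In the annotation 646 of its 813 exon bases, 79.5%, are shared with Gm44805, a gene model on the same strand that joins the Apoc4 and Apoc2 loci and had 0 counts in every library. Apoc4 shares 119 of its 2537 exon bases with it, and had 542, 553 and 514 CPM in WT and 601, 642 and 440 CPM in KO. Whether reads in the shared bases were left out of the counts was not tested.

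**Figure D5:**
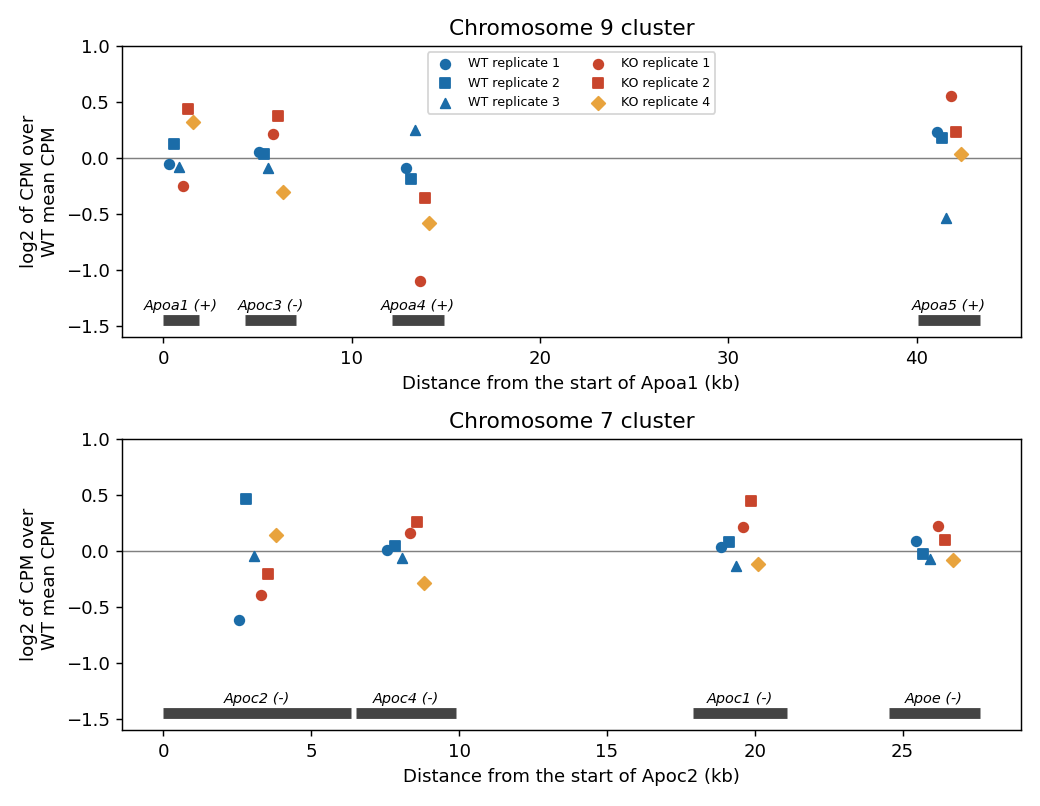
The log2 of CPM over the WT mean CPM for each library, placed by distance in kb from the first gene of the chromosome 9 cluster (top) and the chromosome 7 cluster (bottom). Bars mark the genes with their strand. The 3 KO points of Apoa4 lie below its WT points while those of Apoa1, Apoc3 and Apoa5 overlap WT.

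The members outside the clusters had log2 fold changes near 0. Apob, on chromosome 12 at 7977648 to 8016835 on the plus strand, was at 4256, 4275 and 4575 CPM in WT and at 4505, 3787 and 5507 CPM in KO. KO replicate 2 was the lowest and KO replicate 4 the highest of the 6 livers. The log2 fold change was 0.07 (SE 0.144, adjusted p = 0.96 in edgeR) with an interval of 0.838- to 1.32-fold, and -0.07 without KO replicate 4.

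Apoa2, on chromosome 1 at 171225054 to 171226379 on the plus strand, was at 6260, 6480 and 6063 CPM in WT and at 6307, 6993 and 5546 CPM in KO. Its log2 fold change was 0.0034 (SE 0.115, interval 0.836- to 1.20-fold), and 0.09 without KO replicate 4. The sign of so small a value turned with the scaling, to -0.02 on library totals.

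Apom, on chromosome 17 at 35128997 to 35132050 on the minus strand, encodes an HDL protein that carries sphingosine-1-phosphate. It was at 275, 287 and 285 CPM in WT and at 228, 296 and 254 CPM in KO. WT varied least of all members, with a coefficient of variation of 2.18%, against 13.3% in KO. Its log2 fold change was -0.12 (SE 0.126, adjusted p = 0.924 in edgeR), and -0.10 (adjusted p = 0.831) without KO replicate 4.

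By coefficient of variation the KO livers differed more from each other than the WT livers in 8 of the 10 genes, Apoa5 and Apoc2 being the exceptions. Without KO replicate 4 this held for 7, Apoe then being a further exception, with only KO replicates 1 and 2 set against 3 WT livers. The highest value of a gene was in KO replicate 2 for 5 of the 10 members, and the lowest in KO replicate 1 or KO replicate 4 for 3 members each. These counts were not made over all genes, so they are not read as a trait of the apolipoproteins.

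Other genes of the lipoprotein pathway were read from 6 lists, of which edgeR called 0 genes in 6 libraries. Of 14 other apolipoproteins tested, DESeq2 called 3 as higher in KO: the serum amyloid A genes Saa1, Saa2 and Saa4, whose proteins ride on HDL. The background of this test was 1.27% of all genes. Saa1 is also among the genes the study named from these libraries and is not independent evidence. Saa1 was at 22.4, 15.7 and 13.9 CPM in WT and at 45.9, 40.3 and 73.2 CPM in KO, a log2 fold change of 1.62 (SE 0.259, adjusted p = 0.14 in edgeR and 3.28e-08 in DESeq2). Saa4 was at 137, 140.5 and 171 CPM in WT and at 218, 225 and 212 CPM in KO, a log2 fold change of 0.54 (adjusted p = 0.249 in edgeR and 0.0136 in DESeq2). Saa2 had a log2 fold change of 1.25 (adjusted p = 0.278 in edgeR and 0.00102 in DESeq2). Without KO replicate 4 edgeR called only Saa1 of this list (1.32, adjusted p = 0.0258). DESeq2 without KO replicate 4 again called the same 3 genes, on a background of 3.17%. Its adjusted p was 1.17e-07 for Saa1, 0.00949 for Saa2 and 0.0033 for Saa4. Of the 3, the acute-phase genes Saa1 and Saa2 are induced by inflammation. The 7 neutrophil markers summed to 5.59, 4.21 and 8.41 CPM in WT and to 21.7, 6.52 and 8.47 CPM in KO. By this sum only KO replicate 1 was far above the WT livers. In edgeR 4 of the markers were tested, and all 4 had positive log2 fold changes (median 0.82, and 1.03 without KO replicate 4). DESeq2 called 1 marker as higher in KO with 6 libraries and 1 without KO replicate 4, and edgeR called 0 in both. The part of inflammation or neutrophils in the result was not tested.

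The other members of that list with a mean of at least 10 CPM had edgeR log2 fold changes from -0.26 (Pon1) to 0.37 (Clu), and none was called. Clu, which encodes apolipoprotein J, was at 1321, 1219 and 1338 CPM in WT and at 1552, 1375 and 2082 CPM in KO. Pon1, the HDL-bound paraoxonase, was at 1176, 1243 and 1201 CPM in WT and at 1128, 1163 and 726 CPM in KO, so that KO replicate 4 was far below the rest. Their changes were 0.18 and -0.07 without KO replicate 4. Apof, Apoh, Apon and Apoc4 had changes of 0.05, 0.09, 0.19 and 0.06, and Apool, Apol9a, Apol9b and Pon3 of 0.00 (-0.0013), -0.13, -0.07 and -0.20.

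Among 22 genes of VLDL assembly and secretion, 10 had positive and 12 negative values, with a median of -0.05 in 6 libraries and -0.07 without KO replicate 4. Sort1, which encodes the sorting receptor sortilin that binds apolipoprotein B, was at 20.3, 20 and 23.5 CPM in WT and at 11.3, 10.7 and 26.1 CPM in KO. The 2 low KO livers were replicates 1 and 2, so the call of edgeR without KO replicate 4 (-0.94, SE 0.139, adjusted p = 0.0267) was lost with 6 libraries (-0.41, adjusted p = 0.894). DESeq2 called 2 further genes as lower without KO replicate 4, on its background of 3.17%, named here after their values were seen. Mttp, the triglyceride transfer protein that loads lipid onto apolipoprotein B, had a log2 fold change of -0.47 (adjusted p = 0.0214), and A1cf, a cofactor of Apob mRNA editing, of -0.66 (adjusted p = 0.0191). With 6 libraries the edgeR values were -0.32 and -0.50, with adjusted p = 0.747 and 0.681.

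Of 13 genes of HDL formation and remodelling 0 were called by any of the edgeR or DESeq2 fits with 6 libraries or without KO replicate 4. Lcat, the enzyme that esterifies cholesterol on HDL, had a change of -0.13 and Scarb1, the HDL receptor, of 0.36 (SE 0.152, adjusted p = 0.69 in edgeR). Of the 13, 5 had positive and 8 negative values. Lipc, named after its values were seen, was at 219, 219 and 252 CPM in WT and at 190, 177 and 177 CPM in KO. Its groups did not overlap, as for 6.36% of all genes with KO lower. The change was -0.35 (adjusted p = 0.528 in edgeR), and -0.32 (adjusted p = 0.297) without KO replicate 4. Of 9 genes of plasma lipolysis 0 were called with 6 libraries. Creb3l3, a liver transcription factor that in mice drives Apoa4 expression, had a log2 fold change of -0.06. Creb3l3 was at 417, 402 and 323 CPM in WT and at 385, 348 and 365 CPM in KO, where the groups overlapped. Angptl8, named after its values were seen, had -0.65 with 6 libraries (adjusted p = 0.569 in edgeR), and DESeq2 called it without KO replicate 4 (-0.80, adjusted p = 0.0178).

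Of 14 lipoprotein receptors and their partners 0 were called, and the examples with the highest counts, Lrp1 and Sdc1, had log2 fold changes of 0.32 and 0.07 (adjusted p = 0.851 and 0.975 in edgeR). Of 26 regulators of apolipoprotein genes, DESeq2 called 1 with 6 libraries, on the background of 1.27%. This was Foxo1, a transcription factor that insulin restrains and that is known to raise Apoc3 and Mttp expression. It was at 53, 53.5 and 43.7 CPM in WT and at 77.3, 84.7 and 63.8 CPM in KO, a log2 fold change of 0.59 (SE 0.14, adjusted p = 0.282 in edgeR and 0.0325 in DESeq2). Without KO replicate 4 edgeR called Foxo1 at 0.70 (SE 0.126, adjusted p = 0.0496). DESeq2 then also called Cebpb as higher (0.88, adjusted p = 0.00374), and Ppara (-0.53, adjusted p = 0.0219) and Mlxipl (-0.51, adjusted p = 0.0154) as lower, on a background of 3.17% and with all 3 named after their values were seen. With 6 libraries the groups of these 3 genes overlapped, and their DESeq2 log2 fold changes were 0.63, -0.30 and -0.19 (adjusted p = 0.386, 0.962 and 0.9996). Hnf4a, the main activator of these genes in hepatocytes, was at 936, 971 and 615 CPM in WT and at 900.1, 833 and 918 CPM in KO, a change of 0.07.

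The pattern of Apoa4 over the 6 livers was compared with that of 12027 genes with a mean of at least 1 CPM, by the Euclidean distance of log2 CPM less the WT mean. The 5 nearest were Gm29571 (distance 0.158), Slc12a5 (0.314), Map3k13 (0.338), Capn3 (0.386) and Elovl5 (0.394). Elovl5, a fatty acid elongase, was at 838, 716 and 892 CPM in WT and at 433, 654 and 674 CPM in KO, and none of the 5 was called by edgeR in 6 libraries. This comparison was made with 6 libraries only.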

How the data were processed

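Polyadenylated RNA of 3 WT and 3 p75NTR KO livers was made into directional libraries and sequenced as single-end reads. The authors used Trimmomatic for trimming, STAR 2.5.0c for alignment to GRCm38.p5 (GENCODE M12) and featureCounts for counting per gene. The deposited counts were whole numbers and not normalized, and no source used here gives the strand setting. Symbols and GRCm38 positions came from GENCODE M21, which held 49412 of the 49671 identifiers.

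Groups came from the sample labels. Counts were filtered by filterByExpr (13773 genes), scaled by TMM and tested with glmQLFit and glmQLFTest of edgeR 4.0.16 in R 4.3.3. P-values were adjusted over all genes tested by the Benjamini-Hochberg method, and a call is an adjusted p under 0.05. SE is the log2 fold change over the root of the F statistic. CPM values use TMM-adjusted totals. Alternatives were DESeq2 1.42.0, limma-voom (limma 3.58.1), other scaling, filters and dispersions, each library left out, and the replicate block. The tests were tried on simulated data. The members, lists, named-gene rules and alternatives were chosen with earlier results of these data known. Named genes were the members and Ngfr, in each list up to 4 called genes or otherwise the 2 with the highest counts, other apolipoproteins of at least 10 CPM, and the 5 genes nearest to the member with the largest fold change. Not every gene that these rules name is reported here. Promoters are from RefSeq (GRCm38.p6). Python 3.11.15, scipy 1.17.1 and matplotlib 3.10.9 were used.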

Additional observations from a re-analysis of the deposited data

How the results depend on the processing

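The number of genes called depended on the tool and on KO replicate 4. edgeR called 0 genes with 6 libraries, with DESeq2's size factors, on library totals and with a minimum of 10 counts, limma-voom called 5, edgeR with robust dispersions 9, edgeR without a filter 136 and DESeq2 168. Leaving out 1 library gave 0 to 114 genes in edgeR, the 114 being without KO replicate 4, and DESeq2 without KO replicate 4 called 411. Of the 10 apolipoproteins 0 were called under every alternative but DESeq2 without KO replicate 4, which called 1 (Apoa4, -0.67). The cause of these differences was not tested. The direction of Apoa4, Apoa1, Apoa5, Apoc1, Apoe and Apom was the same in all 16 alternatives. The sign of Apob turned without KO replicate 4 (-0.0704 in edgeR, -0.0702 in DESeq2), with the replicate block (-0.0466) and with replicates 1 and 2 alone (-0.0391). That of Apoa2 turned on library totals (-0.0221), in limma-voom (-0.0027), without KO replicate 2 (-0.0801) and without WT replicate 3 (-0.018), that of Apoc2 without WT replicate 2 (0.168) and that of Apoc3 without KO replicate 2 (-0.0229). All 10 of these values were uncalled. Leaving out 1 library gave -0.0801 to 0.0915 for Apoa2, -0.0704 to 0.1975 for Apob, -0.361 to 0.168 for Apoc2 and -0.0229 to 0.3005 for Apoc3. Replicate numbers 1 and 2 occur in both groups, and deviations of same-numbered livers from their group means correlated at -0.124 and 0.0259. The KO mean includes KO replicate 4, which stood apart, so these values cannot decide whether same-numbered livers were paired. With the replicate block 468 of 13773 genes were called, 0 of them members. That fit takes the difference from these 4 livers but filters and scales over all 6, whereas edgeR on the 4 livers alone without a block called 288 of 13898, so the counts differ in more than the block. The 3 livers per group and their spread limit what can be seen: the 95% interval of Apoa5 ran from 0.864- to 1.73-fold.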
